A study of Mus musculus with 35 samples.

Results

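T cell-like nuclei were 105 of the 144889 barcodes with 300 or more detected genes in 14 single-nucleus RNA libraries of mouse hippocampus. They were selected on expression. A nucleus needed a molecule of Skap1, at least 2 molecules of Skap1 and Themis together and a molecule of Ptprc. It could hold no Csf1r and at most 2 molecules of the neuronal genes Snap25, Rbfox3 and Slc17a7. A molecule is a unique molecular identifier (UMI), the tag that marks 1 captured RNA in droplet sequencing. Skap1 and Themis encode adaptors of the T cell receptor, Ptprc encodes the leukocyte surface phosphatase CD45, and Csf1r encodes the growth factor receptor of microglia and macrophages. The levels of these 7 genes in the nuclei are therefore the choice itself and are described without a test.

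The libraries came from C57BL/6 mice aged 9 months: 3 wild type (WT), 3 PS19, 4 CLEAR mutant and 4 CLEAR mutant x PS19 (CLEAR_PS19). The animals of WT 3, PS19 3, CLEAR 4 and CLEAR_PS19 4 were female and the others male. PS19 mice carry a human tau transgene with a disease mutation, driven by the promoter of the mouse prion protein gene Prnp, which is active widely in the nervous system, and develop tau deposits and loss of hippocampal neurons. CLEAR mice, from what is known of the study, have a mutation in the CLEAR element, the motif bound by the transcription factor TFEB, in Atp6v1h, a subunit gene of the lysosomal proton pump; the mutated allele itself is not described in the labels. Bulk RNA-seq of whole hippocampus covered WT and PS19 mice of the same strain at 4 months (6 and 6 libraries) and at 9 months (5 and 4). The sex of the bulk animals is not given, and replicate 2 of PS19 at 9 months is not used here. The labels do not state that replicates are separate animals, so p-values measure the spread between libraries.

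T cells recognise peptides through the T cell receptor, whose CD3 and CD247 chains pass the signal to the kinases Lck and Zap70. CD8 T cells kill cells that present an antigen, whereas CD4 T cells help or restrain other immune cells. The healthy brain parenchyma holds few T cells. In mouse models of tau disease, T cells have been described in the hippocampus next to activated microglia.

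The totals of the 14 libraries ranged from 45089079 to 96039166 UMIs, and the median per barcode from 3297 to 8518 UMIs. Prnp, whose promoter drives the transgene, ranged from 88.8 to 180 counts per 1000000 (CPM) in the 7 libraries with the transgene and from 55.5 to 86.6 CPM in the 7 without it. Atp6v1h ranged from 52.3 to 62.9 CPM in the 8 libraries with the CLEAR mutation and from 95.4 to 120 CPM in the 6 without it, ranges that did not overlap. Pairs of libraries shared 10 to 70 barcode sequences. Correlations between the granule neurons of the libraries gave 3 library sets, which the labels do not name. Set 1 consisted of the male WT and PS19 libraries together with CLEAR 3 and CLEAR_PS19 3. All 4 libraries from females formed set 2. Replicates 1 and 2 of both groups with the CLEAR mutation formed set 3. A caller of doublets (droplets with 2 nuclei) was set to mark 0.8% per 1000 barcodes, a share fixed by the size of the library. This gave 6.11 to 13.5% of each library, and 10 of the 105 T cell-like nuclei were marked.

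No T cell-like nucleus was found in the WT hippocampus, and most of those found came from PS19 mice. The PS19 libraries held 22, 47 and 8 such nuclei. The CLEAR_PS19 libraries held 2, 3, 18 and 1, and the CLEAR libraries 0, 1, 2 and 1. The 3 WT libraries held 0 of 27832 barcodes.

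Relative to depth of sampling, PS19 1 had 19.7 T cell-like nuclei per 10000 barcodes (exact binomial 95% interval 12.4 to 29.9). PS19 2 had 46.3 (34.0 to 61.5) and PS19 3 had 8.87 (3.83 to 17.5). Every PS19 library lay above every WT and CLEAR library, but the PS19 libraries spread over a wide range and averaged 25 ± 19.3 per 10000 (SD, n = 3). In the CLEAR_PS19 group the values were 1.5, 1.78, 20.7 (12.3 to 32.8) and 1.01 per 10000, a mean of 6.26 ± 9.66 (SD, n = 4). CLEAR_PS19 3 lay within the PS19 range, and the other 3 lay within the range of the CLEAR libraries, which had 0, 1.01, 2.43 and 0.996 per 10000 (1.11 ± 0.999, SD, n = 4). Taken as 3 nuclei, the limit that a count of 0 allows was 2.7, 3.93 and 3.31 per 10000 in WT 1, 2 and 3 and 3.05 in CLEAR 1. The upper ends of their exact binomial intervals, which the plot by library shows, were 3.32, 4.83, 4.07 and 3.75. Intervals and limits cover counting error only.

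**Figure D1:**
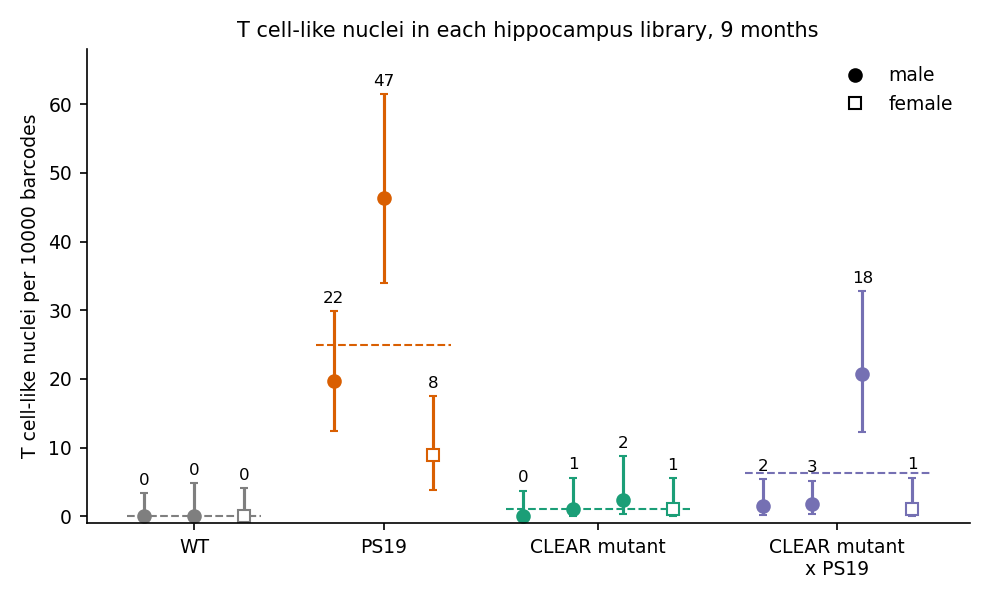
T cell-like nuclei per 10000 barcodes with 300 or more genes (vertical axis) in each of the 14 libraries, grouped by genotype. Points are libraries (circles male, open squares female), bars are exact binomial 95% intervals, dashed lines are group means and the numbers are nuclei. WT libraries sit at 0, PS19 libraries between 8.87 and 46.3, and CLEAR_PS19 3 at 20.7 stands apart from the other 3 of its group.

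The question put to these counts was whether the tau transgene and the CLEAR mutation altered the share of T cell-like nuclei. Averaged over both backgrounds, the difference between libraries with and without the transgene was 15.1 per 10000. An exact two-sided permutation of transgene labels within each background gave p = 0.0171 and, adjusted over the 3 tests of share, 0.0514, just above the 0.05 threshold. With same-numbered libraries kept as blocks, the same difference gave an exact permutation p of 0.0156 and an adjusted p of 0.0469. That exact p is the smallest these blocks allow. The share in libraries with the CLEAR mutation minus that without it was -8.81 per 10000, with labels permuted within transgene status (exact permutation p = 0.173, adjusted p = 0.173). The transgene difference in CLEAR mutants minus that in mice without the mutation was -19.8 per 10000 (exact permutation p = 0.0694, adjusted p = 0.104). Without CLEAR_PS19 3 this difference of differences was -24.7 per 10000 with an adjusted exact permutation p of 0.0214, so 1 library decided on which side of the threshold it lay. CLEAR_PS19 3 is the only CLEAR_PS19 library of set 1, and set 3 holds CLEAR mutants alone. In that omission the difference and the library sets therefore cannot be told apart. Over all libraries, set 3 also enters the CLEAR difference and the difference of differences, so these cannot be fully told apart from the library sets. Without PS19 2, the transgene difference was 9.73 per 10000 (adjusted exact permutation p = 0.0514), the CLEAR difference -3.47 (0.408) and the difference of differences -9.16 (0.408), each moved by over 1.5 times.

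Pair by pair, PS19 exceeded WT by 25 per 10000 with an exact permutation p of 0.1, the smallest that 3 against 3 libraries allow. CLEAR_PS19 exceeded CLEAR by 5.15 per 10000 (exact p = 0.343). CLEAR_PS19 differed from PS19 by -18.7 per 10000 (exact p = 0.114), or by -8.05 without PS19 2, -26.8 without PS19 3 and -23.5 without CLEAR_PS19 3. Library set 3 holds CLEAR_PS19 but no PS19 libraries, so this difference cannot be fully told apart from the library sets. None of the 4 pairs passed after adjustment (adjusted exact permutation p 0.19 to 0.343).

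All 3 libraries with 10 or more T cell-like nuclei belonged to library set 1. Within set 1, the WT libraries had 0 and 0, the CLEAR library 2.43, the PS19 libraries 19.7 and 46.3 and the CLEAR_PS19 library 20.7 per 10000. Within set 2, the order was WT 0, CLEAR 0.996, CLEAR_PS19 1.01 and PS19 8.87 per 10000. Within set 3, both CLEAR_PS19 libraries (1.5 and 1.78) were above both CLEAR libraries (0 and 1.01), with overlapping counting intervals. When transgene labels were permuted only within library sets, a test chosen after the sets were seen, the difference was 12.3 per 10000 (exact permutation p = 0.00694, adjusted p = 0.0139). That exact p is the smallest these sets allow, and it was adjusted over this test and the next alone. The CLEAR difference permuted within sets was -4.18 per 10000 (exact permutation p = 0.611, adjusted p = 0.611). The interaction was not run within sets.

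A gate that used none of the 3 defining genes was applied as a check of the labels on the nuclei. It took nuclei with 3 or more UMIs of 8 other T cell genes and few neuronal UMIs, and found 96 nuclei, of which PS19 libraries gave 71, CLEAR_PS19 23, CLEAR 2 and WT 0. Of these, 87 were also T cell-like by the rule, 90.6% of the gate and 82.9% of the 105. With this gate the transgene difference was 14.1 per 10000 (adjusted exact permutation p = 0.00857).

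The share of T cell-like nuclei followed the share of microglia-like nuclei across the 7 libraries with the transgene, PS19 and CLEAR_PS19 pooled. These 2 genotypes differed in both shares, with means of 10.6 and 6.97% microglia-like nuclei and 25 and 6.26 T cell-like nuclei per 10000. Microglia-like nuclei were called from 4 or more UMIs of 6 microglial genes, Csf1r, P2ry12, Cx3cr1, Siglech and Tmem119 among them. The call also allowed at most 1 UMI of Skap1 and Themis together and at most 2 neuronal UMIs, the neuronal limit of the T cell-like rule. Both shares are of the same barcodes. Both calls also rest on UMI counts, and depth differed between libraries. The median of microglia-like nuclei was 2736, 2554 and 1807 UMIs in PS19 1, 2 and 3. In CLEAR_PS19 1 to 4 it was 1831, 1430, 2549 and 1156 UMIs. The part of depth in the relation was not tested. Microglia-like nuclei formed 9.58, 13.7 and 8.48% of barcodes in PS19 1, 2 and 3 and 6.78, 5.05, 10.2 and 5.87% in CLEAR_PS19 1 to 4. Pearson's r was 0.969 (exact permutation p = 0.00119, adjusted over 2 relations 0.00238) and Spearman's rho 0.893 (exact permutation p = 0.0123). Without the 2 libraries farthest from the median microglia-like share, r was 0.968. The permutation exchanged libraries across genotypes and library sets, so r and its p include differences between these. Within library sets there were 3, 2 and 2 such libraries, and a permutation within sets was not run. The order of T cell-like share followed that of the microglia-like share in set 1 (9.58% with 19.7 per 10000, 10.2% with 20.7, 13.7% with 46.3) and in set 2 (5.87% with 1.01, 8.48% with 8.87). In set 3 it did not (5.05% with 1.78, 6.78% with 1.5). By genotype, the 2 orders were the same in PS19 and differed among CLEAR_PS19 1, CLEAR_PS19 2 and CLEAR_PS19 4. Per 100 microglia-like nuclei there were 2.06, 3.37 and 1.05 T cell-like nuclei in PS19 and 0.221, 0.353, 2.04 and 0.172 in CLEAR_PS19. Against the share of granule neuron-like nuclei, r was -0.384 (exact permutation p = 0.408, adjusted p = 0.408) and rho 0.143 (exact permutation p = 0.783). That r was 0.757 without PS19 2 and 0.829 without the 2 farthest libraries, so its sign rested on single libraries.

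**Figure D2:**
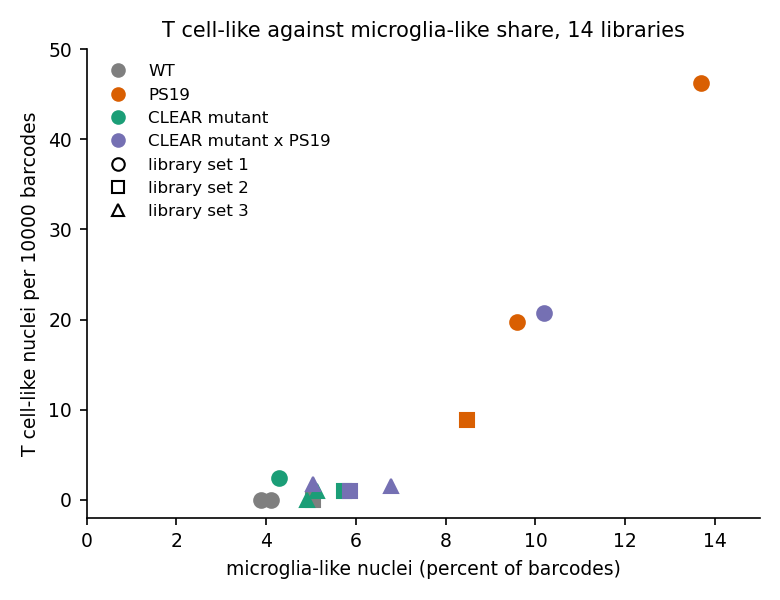
Microglia-like nuclei as percent of barcodes (horizontal axis) against T cell-like nuclei per 10000 barcodes (vertical axis) in the 14 libraries. Colours are genotypes and symbols the 3 library sets. PS19 2 lies highest on both axes (13.7% and 46.3), followed by CLEAR_PS19 3 (10.2% and 20.7) and PS19 1 (9.58% and 19.7).

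The chosen nuclei varied in how far they passed the rule. They had a median of 4 Skap1 UMIs (1 to 16), 2 Themis UMIs (0 to 11, with 21 nuclei at 0) and 4 Ptprc UMIs (1 to 20). Just inside the limit, 8 nuclei had exactly 2 UMIs of Skap1 and Themis, and 87.5% of them had a UMI of the 8 other T cell genes. Just outside it, 42.9% of the 7 nuclei with 1 Skap1 UMI and no Themis had one. All 10 nuclei with exactly 1 Ptprc UMI had one, against 15.8% of the 19 that lacked only Ptprc. Some nuclei outside the other limits also held these genes. A UMI of the 8 genes was found in 60.0% of the 5 nuclei with 2 or more Themis UMIs but no Skap1, in all 4 that failed only by a Csf1r UMI and in 66.7% of the 3 with 3 or 4 neuronal UMIs. A further 50 barcodes failed only by holding 5 or more neuronal UMIs. They had a median of 17010 UMIs, and 6.0% of them had a UMI of the 8 genes.

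The label was checked against genes that the rule did not use. Of the 105 nuclei, 103 (98.1%) had a UMI of 10 T cell markers (the CD3 chains, the receptor constant regions and kinases among them), against 1.55% of the 9571 microglia-like nuclei. A CD3 chain (Cd3e, Cd3d or Cd3g) was detected in 54 nuclei (51.4%, exact 95% interval 41.5 to 61.3). The nuclei were shallow, with a median of 1321 UMIs (537 to 7146) and 954 genes, compared with 1986 UMIs in microglia-like nuclei and 5003 in all barcodes. Genes of other immune cells differed by list. B cell genes were at 0 for 8 of 9 genes and border macrophage genes for 4 of 7. A list of 10 other myeloid genes was at 0 for 6 and summed to 252 CPM, against 15.5 CPM in microglia-like nuclei and 24.2 CPM in other barcodes, with a UMI in 27 nuclei. Its UMIs came from Ly6c2 (21 UMIs, which is also among the leading genes described further on), Ccr2 (13), Plac8 (8) and Flt3 (1), and their part in the results was not tested. All 12 microglial genes had a UMI. P2ry12 and Cx3cr1 had 2 and 3 UMIs in all 105 nuclei, whereas C1qa and C1qb were each detected in 10.5%, Tgfbr1 in 13.3% and Selplg in 36.2%. P2ry12 was detected in 1.9% of T cell-like nuclei and in 41.9% of all other barcodes.

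RNA of other brain cells was present in some T cell-like nuclei. The 6 oligodendrocyte genes summed to 2070 CPM in them, 1950 CPM in microglia-like nuclei and 1600 CPM in all other barcodes, with 495 CPM in PS19 1, 2190 CPM in PS19 2 and 4160 CPM in CLEAR_PS19 3. Of the T cell-like nuclei, 5 held 10 or more oligodendrocyte UMIs, and all but 1 of those were called doublets. The 12 microglial genes summed to 756 CPM against 8780 CPM in microglia-like nuclei, and 1 nucleus held 10 or more of their UMIs. The 8 vascular genes summed to 276 CPM, against 84.1 CPM in microglia-like nuclei and 38.0 CPM in other barcodes, and 2 nuclei, both called doublets, held 10 or more of their UMIs. The 5 astrocyte genes summed to 387 CPM (795 and 384 CPM in the other sets), and 1 nucleus that was not called a doublet held 46 of their UMIs.

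Leading genes were taken as the 25 with the highest fold over all other barcodes, among genes with 20 or more UMIs in T cell-like nuclei and a UMI in at least 10% of them. Of these 25, 20 are annotated as protein coding. Because expression chose the nuclei, these values are descriptions. By a mark of detection in 10% or more of the nuclei and a 10-fold higher level than in other barcodes, 431 of 32285 genes passed (1.33% of all genes).

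A family of small immune GTPases led the list. Gimap7 had 37 UMIs in T cell-like nuclei, and 88.1% of all its UMIs in the 14 libraries lay in these 105 nuclei. Gimap3, Gimap4 and Gimap8 had 63, 75 and 60 UMIs, with 70.8, 69.4 and 43.5% of the series total. These 4 GTPases, which act in the survival of lymphocytes, lie within 124 kb of each other on chromosome 6 (48647234 to 48770851, GRCm38). Gimap7 was detected in 36.4% of the nuclei of PS19 1, 31.9% of PS19 2 and 16.7% of CLEAR_PS19 3.

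The most widely detected gene of the 25 was the long non-coding RNA gene Gm2682 (chromosome 15, 60120540 to 60187408, minus strand). It had 558 UMIs in 95 of the 105 nuclei (90.5%, exact 95% interval 83.2 to 95.3) and none in the 9571 microglia-like nuclei. Detection was 95.5% in PS19 1, 91.5% in PS19 2 and 100% in CLEAR_PS19 3. Ms4a4b, which encodes a membrane protein of T cells (chromosome 19, 11443553 to 11467055), followed with 291 UMIs in 81.9% of nuclei and 1.51% of microglia-like nuclei. In PS19 1, PS19 2 and CLEAR_PS19 3, Ms4a4b was detected in 81.8, 83.0 and 88.9% of nuclei.

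Non-coding genes beside the co-receptor and receptor loci were also among the 25. Gm44174 (chromosome 6, 71353035 to 71373284, plus strand) and Gm44175 (71354351 to 71360829, minus strand) lie between Cd8b1 (71322788 to 71337494) and Cd8a (71373427 to 71379173). They were detected in 41.9 and 46.7% of nuclei, close to the 41.0% for Cd8a. Gm44174 ends 143 bases before the start of Cd8a on the same strand. A UMI of either non-coding gene was found in 37 of the 51 nuclei with a Cd8a or Cd8b1 UMI (72.5%) and in 24 of the other 54 (44.4%). Gm48719, detected in 20% of nuclei, lies on the opposite strand inside Cd3e (chromosome 9, 44998740 to 45009627).

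For 3 of the leading genes the 250 bases before the RefSeq start are shown, because the motifs of lymphoid transcription factors in them can be read directly. They are RefSeq sequences of GRCm38.p6, 5′ to 3′ on the strand of the gene. Capitals mark the RUNX core TGTGGT or its reverse complement ACCACA, or the ETS core GGAAGT or its reverse complement ACTTCC, searched on both strands. The windows are Gimap7 at chr6:48718371-48718620 (plus strand, 1 RUNX core), Cd3e at chr9:45009612-45009861 (minus strand, 1 ETS core) and Runx3 at chr4:135120395-135120644 (plus strand, 2 RUNX cores). Gene positions elsewhere in the text are from GENCODE, whose starts can differ: the last 16 bases of the Cd3e window, with part of its ETS core, lie inside the GENCODE gene.
Gimap7: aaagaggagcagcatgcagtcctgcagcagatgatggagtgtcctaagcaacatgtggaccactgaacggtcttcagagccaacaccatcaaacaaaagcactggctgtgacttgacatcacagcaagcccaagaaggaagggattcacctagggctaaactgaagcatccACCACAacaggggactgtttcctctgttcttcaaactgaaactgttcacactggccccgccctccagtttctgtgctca
Cd3e: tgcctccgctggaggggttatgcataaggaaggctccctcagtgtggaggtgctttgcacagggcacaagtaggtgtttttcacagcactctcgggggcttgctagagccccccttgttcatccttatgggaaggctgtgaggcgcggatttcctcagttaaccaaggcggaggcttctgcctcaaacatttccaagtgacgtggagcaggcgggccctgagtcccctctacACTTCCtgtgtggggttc
Runx3: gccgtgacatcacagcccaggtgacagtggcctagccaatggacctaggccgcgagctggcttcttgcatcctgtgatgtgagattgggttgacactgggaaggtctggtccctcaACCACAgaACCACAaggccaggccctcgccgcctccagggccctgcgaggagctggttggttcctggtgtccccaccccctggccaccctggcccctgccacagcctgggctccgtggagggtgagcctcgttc
These letters were found in promoters generally. The RUNX core was in 14% of 32851 promoter windows of this length and in 7 of the 17 leading genes that had an entry (41.2%), and the ETS core in 19.7% and in 6 of 17 (35.3%). The shares over all promoters count windows, whereas a leading gene was counted if any of its windows held the motif. The shares are therefore not like measures. Both motifs were chosen after other motifs had been looked at, and a match is not a binding site.

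A list of 15 genes held the CD3 and receptor chains, the co-receptors CD4 and CD8 and the surface molecules Cd2, Cd5, Cd6, Cd27 and Cd28. A UMI of at least 1 of the 15 was found in 96 nuclei (91.4%). Of these genes, 12 passed the mark of 10% detection and 10-fold, and the list summed to 2830 CPM in T cell-like nuclei, 61.2 CPM in microglia-like nuclei and 15.1 CPM in all other barcodes. The sum was 3430 CPM in PS19 1, 2310 CPM in PS19 2 and 3080 CPM in CLEAR_PS19 3. Cd247, the signalling zeta chain, had 76 UMIs in 48.6% of nuclei, Cd3e 50 UMIs in 30.5% and Cd3g 40 UMIs in 29.5%. The constant regions of the beta chain, Trbc2 and Trbc1, were detected in 25.7 and 22.9% of nuclei, while the alpha chain gene Trac had 6 UMIs in 5.71%. The costimulatory receptor Cd28 was found in 20%.

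Receptor signalling genes were more abundant. The 17 genes summed to 8020 CPM (1460 CPM in microglia-like nuclei, 305 CPM in other barcodes), and 12 passed the mark. Grap2, an adaptor downstream of the receptor, had 187 UMIs in 77.1% of nuclei and Lck, the kinase that starts the signal, 108 UMIs in 59.0%. Ptpn22, a phosphatase that restrains signalling, was detected in 71.4% and Prkcq, the protein kinase C of T cells, in 67.6%. Fyb, in 72.4% of T cell-like nuclei, was also found in 80.2% of microglia-like nuclei and so does not separate these cells.

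Among 17 transcription factors of T cells, 10 passed the mark. Ikzf3, a lymphoid zinc finger factor, had 118 UMIs in 56.2% of nuclei and 1 UMI in all microglia-like nuclei together. Stat4, which acts downstream of interleukin 12, was detected in 61.0%, Runx3, a factor of the CD8 lineage, in 38.1% and Tbx21 (T-bet) in 18.1%. Tcf7 and Eomes were detected in 4.76 and 5.71%. Bcl11b and Tox, in 61.9 and 57.1% of the nuclei, were also found in 35 and 20.9% of all other barcodes, where they are neuronal genes.

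CD8 was the main co-receptor. A nucleus was called CD8 if it had a UMI of Cd8a or Cd8b1 and none of Cd4. There were 51 such nuclei (48.6%, exact 95% interval 38.7 to 58.5), 38 of 77 in PS19 (49.4%), 13 of 24 in CLEAR_PS19 (54.2%) and 0 of 4 in CLEAR. CD4 calls were 6 (5.71%, 2.13 to 12), and no nucleus held both. The same CD8 call was made in 0.0209% of microglia-like nuclei. After thinning each nucleus to 1000 UMIs, which left 82 nuclei, the CD8 share was 37.8%. Both the depth and the set of nuclei changed in this step. Foxp3, the factor of regulatory T cells, was not detected. Taken as 3 nuclei, the limit that 0 allows is 2.86% of nuclei with a UMI, and the exact 95% upper limit is 3.45%. Receptor chains of gamma-delta T cells were found in 10 nuclei (9.52%, 4.66 to 16.8) and a call of cycling cells in 1 (0.952%).

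A few nuclei carried natural killer cell receptors. The call, a UMI of Ncr1, Klrb1c or Klre1 and none of the CD3 chains, was met by 6 nuclei, all in PS19 and 5 of them in PS19 2. The 8 genes of the natural killer list summed to 318 CPM in PS19 2, 30.9 CPM in PS19 1 and 0 CPM in CLEAR_PS19 3. Of the 6 nuclei, 5 held Klre1, itself a gene of the call. Of genes outside the call, Klrk1 and Lck were each found in 5 of the nuclei. Cd247, Trbc1 and Bcl11b were each detected in 1 and Cd8a, Cd8b1, Cd4, Trac, Trbc2, Cd5, Cd6 and Cd28 in 0. The 6 nuclei met the rule for T cell-like nuclei and were kept in all counts.

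Nuclei with a CD8 call were compared with the other 54 as a description, since depth differed (median 1522 and 1263 UMIs). Runx3 was detected in 56.9% of CD8 nuclei and 20.4% of the others, and Cd3g in 43.1 and 16.7%. Itgae, the integrin chain CD103 of resident T cells, was detected in 21.6 and 3.7%, the chemokine Xcl1 in 15.7 and 1.85%, and Fasl, a death ligand, in 31.4 and 13%. Klrk1 went the other way, at 23.5 and 37.0%, and Ccl5 was nearly level at 25.5 and 27.8%. Gm2682 was detected in 98.0 and 83.3% and Ms4a4b in 92.2 and 72.2%.

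Cytotoxic genes were present in part. Of 16 effector genes, 6 passed the mark and 3 had no UMI, and the list summed to 1640 CPM against 80.4 CPM in microglia-like nuclei. Ctsw, a cathepsin of cytotoxic lymphocytes, was detected in 40.0% of nuclei, Klrk1 (the receptor NKG2D) in 30.5%, the chemokine Ccl5 in 26.7%, Fasl in 21.9% and Nkg7, a granule protein, in 17.1%. RNA of the killing proteins was scarce in these shallow nuclei: Gzmb had 3 UMIs, Gzmk 8, the pore protein gene Prf1 6 and Gzma and Gzmm none. Interferon gamma (Ifng) had 2 UMIs. Gzmk was detected in 6.67% of T cell-like nuclei and 4.49% of all other barcodes, which were deeper, and stood at 46.9 and 7.74 CPM.

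Of 16 residence and homing genes, 10 passed the mark, and the list summed to 3340 CPM against 614 CPM in microglia-like nuclei. Itga4, an integrin chain used to cross vessels, was detected in 67.6% of nuclei, although also in 15.5% of other barcodes. Cxcr6, the receptor of the chemokine Cxcl16, was found in 52.4% of T cell-like and 4.23% of microglia-like nuclei, and Itga1, an integrin chain that binds collagen, in 40.0 and 0.418%. Itgae and Cd69, which mark resident T cells, were detected in 12.4 and 10.5%. Zfp683 (Hobit), a transcription factor of resident T cells, was detected in 6.67% (41.0 CPM), and the ATP receptor P2rx7 in 13.3%, below its 37.2% in microglia-like nuclei. Ccr7, which guides naive T cells to lymph nodes, had no UMI, and S1pr1 and Klf2, which act in exit from tissues, had 8 and 2 UMIs. S1pr1 stood at 46.9 CPM, against 22.8 CPM in microglia-like nuclei and 6.22 CPM in other barcodes.

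Of 11 checkpoint genes, 1 passed the mark: Entpd1, the ectonucleotidase CD39, with 41 UMIs in 23.8% of nuclei, though it was found in 62.2% of microglia-like nuclei. Pdcd1 (PD-1) had 5 UMIs in 3.81% of nuclei (29.3 CPM, against 15.6 CPM in microglia-like nuclei), Havcr2 (TIM-3) 4, Tigit 2, and Lag3 and Ctla4 1 each. The whole list summed to 469 CPM in T cell-like and 1030 CPM in microglia-like nuclei. Of 12 cytokine receptor genes, 9 passed, among them the interleukin 7 receptor Il7r in 26.7% of nuclei and the shared gamma chain Il2rg in 29.5%. Of 10 interferon response genes, 5 passed. Their sum was 1300 CPM, with 897 CPM in PS19 1, 1720 CPM in PS19 2 and 798 CPM in CLEAR_PS19 3.

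**Figure D3:**
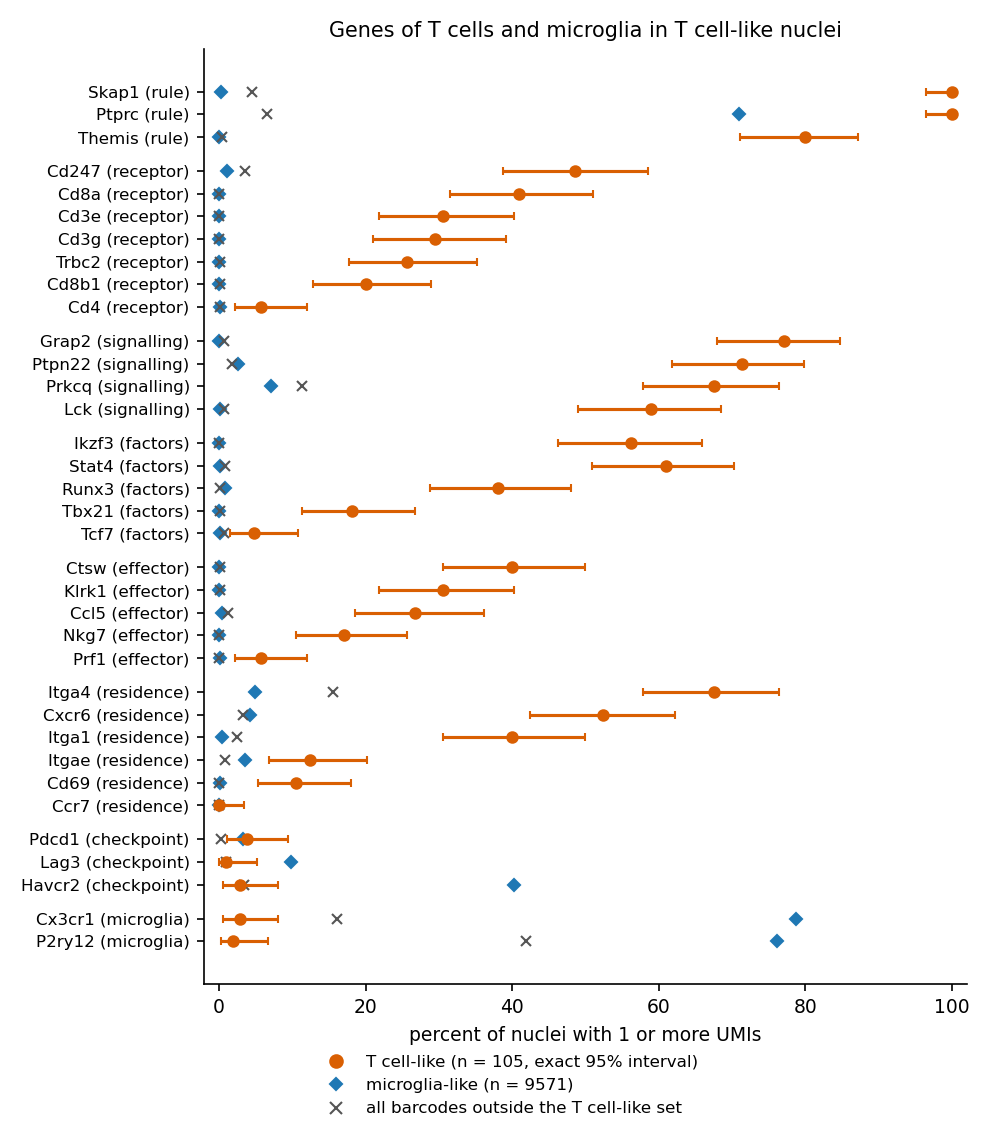
Percent of nuclei with 1 or more UMIs (horizontal axis) for genes grouped by role (vertical axis) in the 105 T cell-like nuclei (circles, exact binomial 95% intervals), the 9571 microglia-like nuclei (diamonds) and all barcodes outside the T cell-like set (crosses). Grap2 (77.1%) and Cxcr6 (52.4%) lie far from both other sets, whereas Lag3 and Havcr2 lie lower than in microglia-like nuclei and Pdcd1 lies close to them (3.81 and 3.26%).

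Expression within T cell-like nuclei could be set side by side between genotypes but not tested, because 2 PS19 libraries and 1 CLEAR_PS19 library held 10 or more of them. Some genes had like shares. Cxcr6 was detected in 54.5% of 77 PS19 and 54.2% of 24 CLEAR_PS19 nuclei and Cd8a in 41.6 and 45.8%. Klrk1 stood at 37.7% in PS19 and 12.5% in CLEAR_PS19 (489 and 138 CPM), and Stat4 at 67.5 and 50.0%. Itgb7, an integrin chain of T cells that home to mucosa, stood at 7.79 and 37.5% (57.0 and 254 CPM). By library, Itgb7 was detected in 4.55% of nuclei in PS19 1, 8.51% in PS19 2 and 38.9% in CLEAR_PS19 3, so the CLEAR_PS19 value is in the main that of 1 library. Klrk1 was detected in 31.8, 44.7 and 11.1% of the nuclei of these libraries. The genes of this comparison were chosen after their values were seen.

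The bulk libraries gave a measure in which the rule for nuclei had no part. Each held 9630430 to 17182605 counts. The transgene was seen as a higher Prnp level in PS19, by 1.21 on the log2 scale at 9 months (SE 0.06) and 1.22 at 4 months. In bulk tissue, fewer cells of a type and less RNA per cell cannot be told apart. Reads were counted without strand, so a gene and its antisense partner are not separated.

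At 9 months the genes most confined to T cell-like nuclei were near the limit of detection in bulk. Of the 15 receptor and co-receptor genes, Trac alone passed the filter on low counts, and of the 25 leading genes 3 did, Gimap8 and Ly6c2 among them. None of these 4 was called by edgeR at an adjusted p under 0.05; 1 leading gene had an unadjusted p under 0.05, and DESeq2, which keeps more genes of low count, called 1 leading gene (Gimap3) and 0 receptor genes. The background was 1239 of 16133 tested genes called higher in PS19 (7.68%) and 821 called lower; the 2060 calls in all were 1185 without PS19 replicate 5. Trac had 11, 16, 8 and 7 counts in PS19 and 5, 3, 9, 10 and 11 in WT, groups that overlap (log2 fold change 0.65, edgeR adjusted p 0.31). The kinase Lck had a log2 fold change of 0.45 (edgeR adjusted p 0.35).

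The genes under the filter had few counts. Cd8a had 11, 8, 1 and 7 counts in the 4 PS19 libraries and 2, 0, 0, 0 and 1 in the 5 WT libraries. Its groups overlapped through 1 PS19 library with 1 count. In an edgeR fit without the filter, its adjusted p was 0.025. Cd8b1 had 8, 0, 0 and 3 counts in PS19 and none in WT. Cd3g had 1, 1, 2 and 9 counts against 2, 1, 0, 0 and 0, Cd247 1, 0, 1 and 2 against 4, 0, 1, 3 and 3, and Cd4 6, 11, 2 and 11 against 7, 4, 7, 5 and 5. Cd6 had 5, 7, 5 and 10 counts against 3, 12, 11, 10 and 3, Cd27 5, 2, 8 and 2 against 1, 3, 9, 2 and 2, Cd28 3, 2, 2 and 4 against 5, 1, 3, 0 and 0, and Trbc2 5, 3, 2 and 8 against 1, 3, 5, 3 and 3. The groups overlapped for all 7 of these genes from Cd3g to Trbc2. Cd3e had 5, 0, 4 and 3 counts against 1, 0, 2, 0 and 0 (edgeR adjusted p without the filter 0.19), again with overlap. Themis had 3, 2, 2 and 2 counts in PS19 and none in WT. At 4 months it had 0, 2, 3, 1, 2 and 0 counts in PS19 and 1, 0, 0, 0, 0 and 0 in WT.

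Some other genes of T cells were called in the fit without the filter. That fit called 1 of 15 receptor and co-receptor genes, 3 of 25 leading genes and 3 of 16 cytotoxic genes higher. Over all genes it called 1180 of 25611 higher. Ms4a4b had 2, 6, 5 and 6 counts in PS19 and 1, 0, 0, 1 and 0 in WT (edgeR adjusted p without the filter 0.036), and the groups did not overlap. Gimap3 had 16, 4, 5 and 9 counts against 2, 4, 0, 0 and 1 (0.019 in the same edgeR fit), with overlap. Ccl5 had 13, 8, 5 and 56 counts against 0, 1, 1, 2 and 1 (0.003 in the same edgeR fit). PS19 replicate 5 gave most of the Ccl5 counts, and PS19 replicates 1, 3 and 4 were all above the WT range. These genes were chosen with their values known.

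Summed over the 15 receptor and co-receptor genes, PS19 libraries at 9 months had 3.44 to 5.85 CPM and WT libraries 1.85 to 2.93 CPM, ranges that did not overlap. The 25 leading genes summed to 5.34 to 12.5 and 3.37 to 4.32 CPM. The 16 cytotoxic genes summed to 7.83 to 11.9 CPM in PS19 and 3.08 to 4.71 CPM in WT, but that gap rested on the chemokines Ccl3, Ccl4 and Ccl5. These 3 summed to 3.88 to 6.69 and 0.241 to 1.21 CPM, and the other 13 genes to 3.61 to 5.24 CPM in PS19 and 2.58 to 4.33 CPM in WT, ranges that overlapped. In the nuclei of the 7 libraries with the transgene, 70.4% of Ccl3 and 69.9% of Ccl4 UMIs lay in microglia-like nuclei. At 4 months the sums of the receptor and leading genes overlapped. The receptor genes summed to 1.67 to 2.43 CPM in PS19 and 1.46 to 3.33 CPM in WT, and the leading genes to 2.98 to 5.61 and 3.21 to 5.93 CPM. Cd8a had 0 to 3 counts in both groups at 4 months. Cd3e and Ms4a4b had none in PS19 at 4 months and up to 3 and 5 counts in WT.

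**Figure D4:**
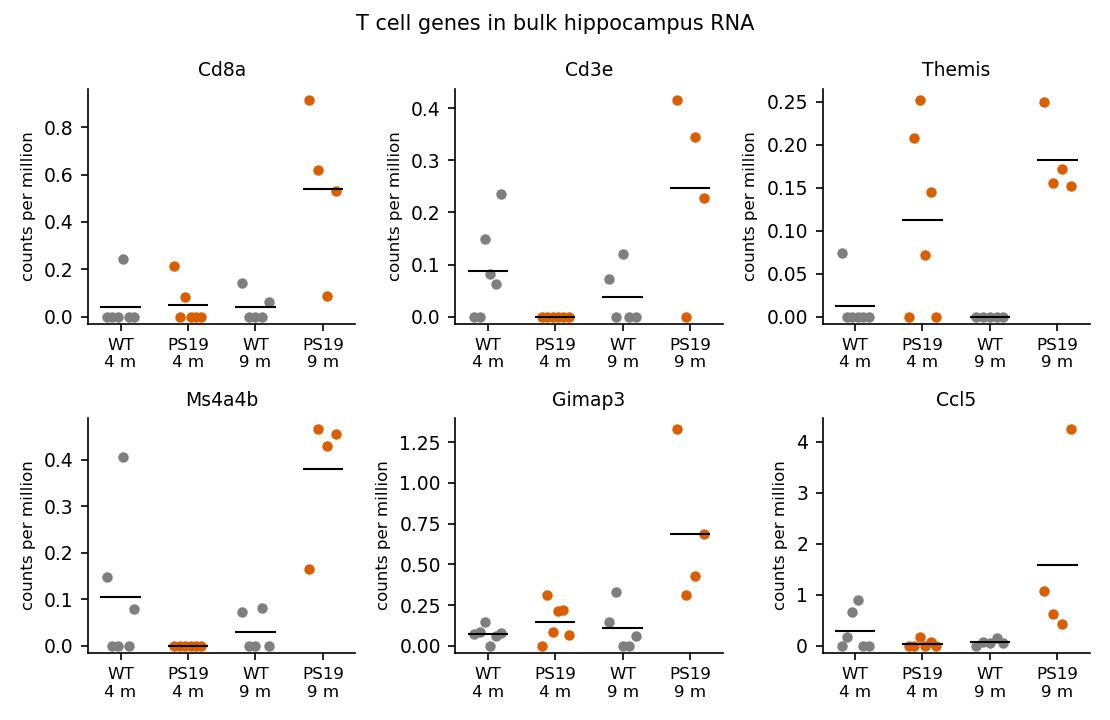
CPM (vertical axes, linear) of 6 genes in every bulk library of WT and PS19 hippocampus at 4 months (4 m) and 9 months (9 m). Points are libraries and lines are group means. The mean of PS19 at 9 months is the highest for all 6 genes, that of Ccl5 with 1 library at 4.25. Points of PS19 at 9 months overlap with WT of the same age for Cd8a, Cd3e and Gimap3, and with WT at 4 months for Cd8a, Cd3e, Ms4a4b and Ccl5.

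Genes of receptor signalling were in part abundant enough to test in bulk. Of 17 receptor signalling genes 12 were tested and 3 were called higher, none lower. Lcp2, an adaptor of antigen receptor signalling, had 68, 79, 66 and 100 counts in PS19 and 24, 40, 48, 36 and 51 in WT, and rose by 1.15 on the log2 scale (SE 0.17, edgeR adjusted p 7.2e-05). Fyb rose by 1.26 (SE 0.18, edgeR adjusted p 3.6e-05), with 93, 114, 91 and 146 counts in PS19 and 60, 50, 72, 38 and 41 in WT. Lat, with 16, 3, 13 and 6 counts in PS19 and 3, 0, 2, 3 and 4 in WT, overlapped between groups. Its log2 fold change was 2.13 (edgeR adjusted p 0.040), and it was called in 16 of 25 alternative fits. The call was lost with the replicate block (edgeR adjusted p 0.066) and when WT replicate 1, 2, 3, 4 or 5 or PS19 replicate 1, 4 or 5 was left out, with edgeR adjusted p from 0.051 to 0.15.

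Of the genes of the rule, Ptprc rose by 2.05 (SE 0.24, edgeR adjusted p 2.4e-06), with 190, 171, 156 and 209 counts in PS19 and 62, 63, 41, 37 and 40 in WT. Csf1r, the gene whose nuclei the rule leaves out, rose by 0.94 (edgeR adjusted p 4.2e-07), with 173 to 200 CPM in PS19 and 80.7 to 106 CPM in WT. The neuronal gene Rbfox3 fell by 0.20 (edgeR adjusted p 0.024), and Snap25 and Slc17a7 were not called (-0.07 and -0.18, edgeR adjusted p 0.53 and 0.12). Skap1, with 17, 23, 17 and 13 counts in PS19 and 14, 17, 15, 14 and 16 in WT, overlapped between groups (0.37, edgeR adjusted p 0.60). In the nuclei of the 7 transgene libraries, 76.4% of Ptprc UMIs lay in microglia-like nuclei and 2.61% in T cell-like nuclei. The most abundant signalling genes in bulk, Rasgrp1, Fyn and Prkcq, had log2 fold changes of -0.09, -0.05 and 0.37 and were not called (edgeR adjusted p 0.57, 0.68 and 0.28).

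Of 17 transcription factors 12 were tested, 5 were called higher and 2 lower. Ikzf1 rose by 1.13 (edgeR adjusted p 9.1e-07) and Runx1 by 1.38 (edgeR adjusted p 0.0020). Lef1 (0.71), Prdm1 (0.79) and Ets1 (0.26) were called higher with edgeR adjusted p of 0.025, 0.031 and 0.032, and each lost its call in 4 or more of the 25 alternatives. Bcl11b, found in 35% of barcodes outside the T cell-like set, fell by 0.28 (edgeR adjusted p 0.0078). Eomes fell by 1.85 (edgeR adjusted p 0.017), from 41, 38, 44, 33 and 68 counts in WT to 15, 2, 14 and 12 in PS19. Its adjusted p was 0.062 without PS19 replicate 3 and 0.052 without PS19 replicate 5 in edgeR.

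Some effector and homing genes were called as well. Of 16 cytotoxic genes 4 were tested and 2 called higher: the chemokines Ccl4 (3.95, edgeR adjusted p 3.9e-05; 20, 22, 14 and 16 counts in PS19 and 0, 1, 0, 0 and 5 in WT) and Ccl3 (2.27, edgeR adjusted p 0.0018). Of 16 residence genes 8 were tested and 4 called higher, among them Itga1 (0.58), Itgal (1.51) and P2rx7 (0.69). Itgal, an integrin chain of LFA-1 on leukocytes, had 12, 26, 14 and 32 counts in PS19 and 12, 9, 4, 3 and 13 in WT (edgeR adjusted p 0.013, and 0.076 without PS19 replicate 5). The more abundant S1pr1 and Itga4 had log2 fold changes of 0.07 and -0.19, and Gzmm and Gzmk 0.24 and 0.54, and were not called (edgeR adjusted p 0.48, 0.47, 0.61 and 0.52).

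Of the 11 checkpoint genes 7 were tested in bulk tissue at 9 months and 4 rose. Lag3 had 488, 657, 496 and 709 counts in PS19 and 75, 93, 96, 102 and 108 in WT, and was higher by 2.79 on the log2 scale in PS19 (SE 0.17, adjusted p 2.1e-10 in edgeR). Pdcd1 had 39, 66, 47 and 45 counts against 3, 8, 5, 7 and 8 (3.13, SE 0.37, edgeR adjusted p 2.7e-06). Havcr2 rose by 1.32 and Entpd1 by 0.70. None of the 7 was called at 4 months.

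In the nuclei, UMIs of Pdcd1 and Lag3 lay for the most part in microglia-like nuclei. In the 7 libraries with the transgene, T cell-like nuclei held 0.853% of the 469 Pdcd1 UMIs and 0.0751% of the 1331 Lag3 UMIs, and microglia-like nuclei held 71.9 and 67.5%. Of the 10 signalling and factor genes called in bulk, 5 also lay mostly in microglia-like nuclei: Lcp2 (77.7%), Fyb (79.9%), Runx1 (80.3%), Ikzf1 (83.8%) and Prdm1 (62.6%). The other 5 did not, with 30.6% of Ets1, 4.76% of Eomes, 3.27% of Lat, 1.54% of Lef1 and 0.26% of Bcl11b UMIs in those nuclei. T cell-like nuclei held 28.6% of Eomes UMIs and 0.179 to 3.57% of those of the other 9 genes. Of Ccl4, T cell-like nuclei held 0.0679% and microglia-like nuclei 69.9%. In contrast, T cell-like nuclei held 76.8% of the 82 Cd8a UMIs and 69.0% of the 71 Cd3e UMIs. Itgal was split, with 22.6% of its 208 UMIs in T cell-like and 21.6% in microglia-like nuclei. Ccl5 lay in neither set for the most part, with 4.36% of its 894 UMIs in T cell-like and 5.59% in microglia-like nuclei.

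**Figure D5:**
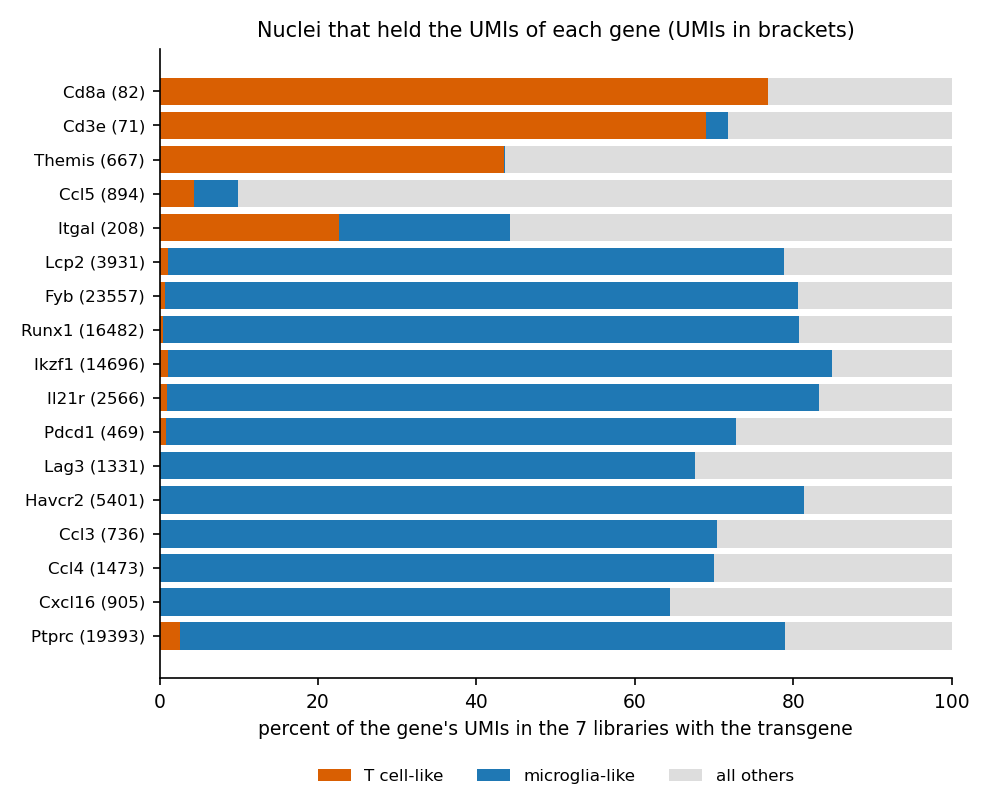
Percent of each gene's UMIs in the 7 libraries with the transgene (horizontal axis) that lay in T cell-like nuclei, microglia-like nuclei and all other barcodes, for 17 genes (vertical axis, total UMIs in brackets). Cd8a and Cd3e lie mostly in T cell-like nuclei, and Pdcd1, Lag3, Lcp2, Fyb, Runx1 and Ikzf1 lie mostly in microglia-like nuclei.

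Chemokines and adhesion molecules that draw T cells were also measured in bulk. Of 12 genes 11 were in the files, 7 were tested and 4 rose at 9 months. Cxcl16, the ligand of Cxcr6, had 83, 71, 66 and 96 counts in PS19 and 20, 30, 26, 19 and 20 in WT (1.94, edgeR adjusted p 3.9e-07). In the nuclei 64.4% of its UMIs in transgene libraries were in microglia-like nuclei and 0 in T cell-like nuclei. Cxcl10, the ligand of Cxcr3, had 43, 33, 31 and 286 counts against 6, 4, 12, 10 and 24 (3.28, edgeR adjusted p 0.0017), and 1.90 without PS19 replicate 5. The adhesion molecule Icam1 rose by 1.35 and the chemokine Ccl12 by 2.53 (edgeR adjusted p 0.0045, and 0.057 without PS19 replicate 5). All 12 microglial genes and 9 of 10 interferon response genes were called higher in the same comparison, and the part of either in these changes was not tested.

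At 4 months edgeR called 3 genes higher in all (0.0186% of 16133) and none lower: Prnp, 4930590L14Rik and Mapt. Of the 59 tested genes in the 8 T cell lists, edgeR called 0, with 2 at an unadjusted p under 0.05, and DESeq2 called 0. The transgene effect differed between 9 and 4 months for 872 genes, 705 upward (4.37%) and 167 downward, and for 514 without PS19 replicate 5 at 9 months. Among these were 22 of the 59 tested genes in the 8 T cell lists. They were 2 of 12 receptor signalling genes, 2 of 12 transcription factors, 4 of 8 residence genes and 4 of 7 checkpoint genes. The others were 2 of 4 cytotoxic genes, 4 of 8 cytokine receptors and 4 of 7 chemokine and adhesion genes. Only 1 receptor or co-receptor gene was tested in edgeR, and it was not called, nor was its unadjusted p under 0.05. DESeq2 called 0 of the 5 such genes to which it gave an adjusted p. The difference was 3.25 on the log2 scale for Pdcd1 and 2.95 for Lag3. This comparison shares its libraries with both others.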

How the data were processed

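For nuclei, the deposited matrices hold whole-number UMI counts by gene and barcode, and per the file headers Cell Ranger 5.0.1 made them; the submitters' processing notes name Seurat and mm10. Bulk values were deposited as read counts per gene. Of 21 bulk tables, 1 has a header, which states featureCounts 2.0.0 on exons and paired reads, without strand, on mm10. The submitters' processing notes also name cutadapt, STAR and DESeq2.

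Barcodes with 300 or more genes were kept. Doublets were called with Scrublet (scanpy 1.11.5) at 0.8% per 1000 barcodes and removed only in an alternative. CPM pool the nuclei of a set, and bulk CPM use TMM library sizes. Shares per library were compared by exact permutation (scipy 1.17.1, Python 3.11.15), and bulk counts in edgeR 4.0.16 under R 4.3.3 (quasi-likelihood F-test, TMM, filterByExpr), with all 21 libraries in 4 groups. Calls are Benjamini-Hochberg adjusted p under 0.05 over all genes tested. Methods were tested on simulated data. Coordinates are GENCODE genes of GRCm38.

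Members and gene lists were chosen with earlier results of these data known. Named were the 25 leading genes, called genes of each list (up to 8), the 3 highest receptor, signalling, cytotoxic and residence genes, and genes said to be chosen later. Of the 8 smallest p at 9 months, Prnp and Lag3 are described, and Laptm5, Gfap, C1qa, Cst7 and Osmr, which also rose, belong to no T cell list. Some genes that this rule names are not reported here.

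Same-numbered libraries with and without the transgene deviated together in granule neurons (correlations 0.626, 0.554 and 0.701 for WT and PS19, and 0.797, 0.818, 0.648 and 0.79 for CLEAR and CLEAR_PS19), so the transgene test was also run with a replicate block, as an alternative.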

Additional observations from a re-analysis of the deposited data

Results flagged for a closer look

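Samples that stood apart from their group were looked for in 156 groups of 4 to 6 libraries (the share of T cell-like nuclei and the bulk CPM of the named genes). A library was taken as apart where its gap to the nearest other library, over the range of the group, passed the 95% critical value of Dixon's test. This was so for 24 groups. The 5% rate of the test holds for continuous, normally distributed values, and many of these groups hold few counts. At 4 months, 1 library alone had counts of Themis and Cd8a in WT and of Cd3g and Ccl4 in PS19. The same held for Cd3d in WT at 9 months. Such groups pass the critical value by their form alone. The number of groups that passed therefore cannot be compared with 5%, and nothing is read from it.

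CLEAR_PS19 3 stood apart in the share of T cell-like nuclei, with 20.7 per 10000 against at most 1.78 in the other 3 libraries of its group.

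In PS19 at 9 months, replicate 5 was highest for Cd3g (0.684 CPM), Cd3d (0.228 CPM), Ccl5 (4.25 CPM), Itga1 (23.8 CPM) and Cxcl10 (21.7 CPM), and replicate 1 was lowest for Ms4a4b (0.166 CPM). In WT at 4 months, replicate 4 was highest for Cd8a (0.244 CPM), Ms4a4b (0.406 CPM), Il10ra (8.61 CPM) and Cxcl10 (3.41 CPM), and replicate 1 for Themis (0.0742 CPM). In WT at 9 months, replicate 5 was highest for Ccl3 (0.827 CPM) and Ccl4 (0.318 CPM), replicate 3 for P2rx7 (18.2 CPM), replicate 2 for Cxcl16 (2.5 CPM) and replicate 4 for Cd3d (0.0813 CPM). Replicate 1 was lowest there for Lcp2 (1.73 CPM) and replicate 4 for Icam1 (2.44 CPM). In PS19 at 4 months, replicate 4 was highest for Cd3g (0.0719 CPM) and Ifngr1 (16.7 CPM), replicate 1 for Il21r (1.86 CPM) and replicate 3 for Ccl4 (0.084 CPM), and replicate 5 was lowest for Eomes (0.145 CPM). Several of these values are 1 to 3 counts, as for Themis, Cd3d and Ccl4 at 4 months.

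The PS19 effect differed between 9 and 4 months for 22 of the 28 named genes tested (edgeR interaction, adjusted p under 0.05), on the log2 scale. Most of these genes were named for their calls at 9 months, whose libraries enter the interaction, so the count was largely fixed by that choice and nothing is read from it. Over all 16133 genes tested 872 differed, 705 of them upward (4.37%). The differences were 6.42 for Ccl4, 4.88 for Cxcl10, 3.62 for Ccl12, 3.38 for Ccl3, 2.24 for Cxcl16 and 1.41 for Icam1 among chemokines and adhesion molecules. Among checkpoint genes they were 3.25 for Pdcd1, 2.95 for Lag3, 1.09 for Havcr2 and 0.743 for Entpd1. Among signalling and factor genes they were 2.44 for Ptprc, 1.69 for Runx1, 1.35 for Fyb, 1.26 for Ikzf1 and 1.17 for Lcp2. Homing genes gave 1.91 for Itgal, 0.703 for P2rx7 and 0.647 for Itga1. Cytokine receptors gave 1.94 for Il21r, 1.08 for Il10ra, 0.937 for Tgfbr2 and 0.556 for Ifngr1.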

How the results depend on the processing

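The transgene difference in share (15.1 per 10000, adjusted exact p 0.0514) kept its direction in every alternative run and lay on the other side of 0.05 in several. It was 15 without doublet calls (adjusted p 0.0257), 11.3 after thinning to 1000 UMIs (0.0386), 15.1 with the replicate block (0.0469), and, in alternatives chosen after seeing the data, 2.76 as log2(share + 1) (0.0386), 14.1 with the gate of 8 T cell genes (0.00857) and 12.3 within library sets (0.0139). The p within library sets was adjusted over the transgene and CLEAR tests alone, without the interaction. Keeping only barcodes under 5% mitochondrial UMIs left the share of every library unchanged at the digits given. Alternatives with 500 genes, a higher limit of Skap1 and Themis, or a further T cell marker were also run. So were those with barcodes low in neuronal genes as the denominator and with males only, and their p-values are not reported here. Leaving out 1 library gave 9.73 (without PS19 2) to 19.1 (without PS19 3), adjusted p 0.0214 to 0.103. The block left the calls of the CLEAR difference and the interaction unchanged. There it paired same-numbered libraries with and without the CLEAR mutation, whose granule neuron deviations correlated at -0.534 to 0.442. These pairs lie in different library sets, so nothing is read from the unchanged calls. With 1 library left out, the CLEAR difference ranged from -12.8 to -3.47 and the interaction from -27.9 to -9.16. The interaction on the log2 scale was -3.30 (adjusted exact permutation p 0.0465). The correlation with microglia-like share ranged from 0.939 to 0.986 and that with granule neuron-like share from -0.605 to 0.757.

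The CD8 share was 37.8% and the share with a CD3 chain 40.2% after thinning, which leaves fewer UMIs and fewer nuclei. Bulk calls at 4 months were 3, but 11 with DESeq2, 5 with a replicate block and 3 to 4 without 1 library. At 9 months they were 2060, and 1185 without PS19 replicate 5 to 2110; for the difference between ages 872, and 514 without that library to 963. Bulk replicate numbers did not deviate together at 9 months (correlations 0.0156 to 0.0813), and there the block gave 2127 and 899. The cause of these shifts was not tested. Of 725 alternatives for single genes, 695 kept their call and direction and none reversed; of 176 for the other results, 157 did so, 19 changed and 1 of these reversed (the granule neuron correlation, 0.757 without PS19 2). Planned edgeR comparisons of T cell-like nuclei between genotypes were not run, because PS19 alone had 2 libraries with 10 or more.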
